A study of Mus musculus with 2 samples.

Results

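Polyfunctional Th2 cells are described here as lung T cells of the Th2 type that carried mRNA of at least 2 of the 3 type 2 cytokine genes Il4, Il5 and Il13. The cells were chosen by their unique molecular identifiers (UMIs, 1 for each captured mRNA molecule) in the raw counts of 2 single-cell libraries. A barcode entered the Th2 gate with at least 500 genes, under 10% mitochondrial UMIs, at least 2000 UMIs, at least 2 UMIs of the CD3 genes Cd3d, Cd3e and Cd3g together, none of Lyz2 or Foxp3, at least 1 UMI each of Gata3 and Il1rl1, and fewer than 2 UMIs of the proliferation genes Mki67 and Top2a together. The gate held 732 cells of 5729 barcodes in the control library and 523 of 6808 in the other library. Of these, 489 and 317 cells had UMIs of 2 or 3 of the cytokine genes, so the polyfunctional cells numbered 806 of 12537 barcodes. The other 243 and 206 gated cells had 0 or 1 of the cytokine genes and served as the comparison, called other gated Th2 cells. Because measured UMIs split these classes, differences between them are descriptions and carry no test.

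The study used mouse models of allergic airway disease to examine NRF2, the transcription factor encoded by Nfe2l2, in helper T cells, and the single-cell libraries were made to look for pathways under its control. The control library came from lung CD4+ cells of Nfe2l2fl/fl mice, whose gene carries loxP sites but which are not labelled as carrying Cre. The other came from Cd4cre Nfe2l2fl/fl mice, in which Cre is made under Cd4 regulatory sequences that are active in developing T cells. In both groups the mice were 8 to 15 weeks old and, per the protocol, lungs were taken 16 h after the final intranasal dose. Both a protease with ovalbumin model and a house dust mite model are described, and it is not stated which gave these cells, or from how many mice. With 1 library per genotype, no difference could be tested against the spread between mice, and a difference between the libraries cannot be told apart from any other difference between the samples. The second library is called the Cd4cre-labelled library because its Nfe2l2 level, given with the comparison of the libraries, is higher and not lower.

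Th2 cells are CD4 T helper cells whose program depends on the transcription factor GATA3, and many of them in tissue carry ST2, the receptor for the alarmin IL-33, encoded by Il1rl1. They make IL-4, which drives IgE class switching in B cells, IL-5, which supports eosinophils, and IL-13, which acts on airway epithelium and smooth muscle to raise mucus and reactivity. The 3 cytokine genes lie close together in 1 locus, and single cells are known to transcribe them in differing combinations.

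Paired values are given with the control library first and the Cd4cre-labelled library second. The libraries held 41391255 and 38744058 UMIs, and polyfunctional cells had a median of 9308 and 8654 UMIs per cell against 7455 and 6410.5 in other gated Th2 cells. Deeper cells show more genes, so each gated cell was thinned at random to 2000 UMIs before levels were summed. Levels are UMIs per 1000000 summed UMIs (CPM) of all cells of a class in a library. At that equal depth polyfunctional cells had a median of 955 and 935 genes, against 956 and 945 in the other gated cells. Mitochondrial UMIs made up 2.18% and 2.15% against 2.12% and 2.18%. No barcode was shared between the gated cells of the libraries, 49 were shared between the libraries as a whole, and 6 polyfunctional cells had a barcode that also occurs in the other library. No doublet caller was run on these cells. Intervals are 95% limits and cover counting error only, not the clumping of a gene's UMIs in few cells or the spread between mice.

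The label was checked against markers that the gate did not use, without thinning. Ccr8, a chemokine receptor of skin- and lung-type Th2 cells, stood at 474 and 551 CPM in polyfunctional cells and at 387 and 297 CPM in the 3297 and 2893 T cells without Foxp3 that lay outside the gate. Pparg, a lipid-sensing transcription factor of lung Th2 cells, stood at 122 and 102 CPM against 51.8 and 27.0 CPM. Il17rb, a part of the IL-25 receptor, stood at 26.4 and 33.9 CPM against 8.5 and 6.92 CPM. Ccr4, a chemokine receptor of Th2 and other T cells, went against the label, at 18.1 and 25.6 CPM against 43.8 and 36.2 CPM, and Ptgdr2, which encodes the prostaglandin receptor CRTH2, had 0 UMIs in polyfunctional cells. Gata3, which the gate used, was at 704 and 735 CPM against 208 and 165 CPM. The 5 Th2 markers that the gate did not use summed to 640 and 713 CPM in polyfunctional cells. In other gated Th2 cells they summed to 620 and 548 CPM, so in the control library they differed little between these classes.

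Il13 gave most of the cytokine UMIs of these cells, while Il4 and Il5 were sparse. Each UMI stands for 1 captured transcript 5′ end, so these counts do not scale with gene length. A polyfunctional cell held a median of 20 and 15 UMIs of Il13, 1 and 1 of Il4, and 1 and 1 of Il5. The highest cell reached 526 and 489 UMIs of Il13. The distribution was uneven, since the 10% of cells with the most Il13 held 45.1% and 49.0% of its UMIs. Summed at equal depth, Il13 stood at 3775 CPM (3654 to 3899) and 3619.9 CPM (3473 to 3771), Il5 at 509 CPM (465 to 556) and 489 CPM (436 to 547), and Il4 at 446 CPM (405 to 489.7) and 314 CPM (272 to 361). The rule fixed that these levels be higher than in other gated cells, where Il13 stood at 779.8 and 706 CPM. The Il4 interval of the Cd4cre-labelled library lay below that of the control library, and the Il5 and Il13 intervals of the libraries overlapped.

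Among the members, nearly every cell had Il13, and the classes differed in its partner. Il4 with Il13 was found in 176 and 92 cells (36% and 29.0% of polyfunctional cells), Il5 with Il13 in 130 and 115 (26.6% and 36.3%), and all 3 in 181 and 108 (37.0% and 34.1%). Il4 with Il5 and no Il13 was found in 2 and 2 cells. Cells just inside the rule, with exactly 2 of the genes at 1 UMI each, numbered 13 and 8. Just outside it, 163 and 133 cells had 1 cytokine gene, at a median of 5 and 3 UMIs, and 140 and 115 of them had Il13 alone. The share of gated cells with both Il4 and Il13 was 48.8% and 38.2%, where the product of the single shares gives 43.6% and 33.8%. For Il5 and Il13 the values were 42.5% and 42.6% against products of 37.7% and 36.2%. For Il4 and Il5 they were 25% and 21.0% against 22.4% and 18.1%. At equal depth the pairs with Il13 still lay above the product, at 21.2% and 17.4% against 17.8% and 14.4% for Il4, and at 21.9% and 20.8% against 17.6% and 16.6% for Il5. Il4 with Il5 lay on either side of it, at 6.97% and 4.78% against 5.72% and 5.02%.

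**Figure D1:**
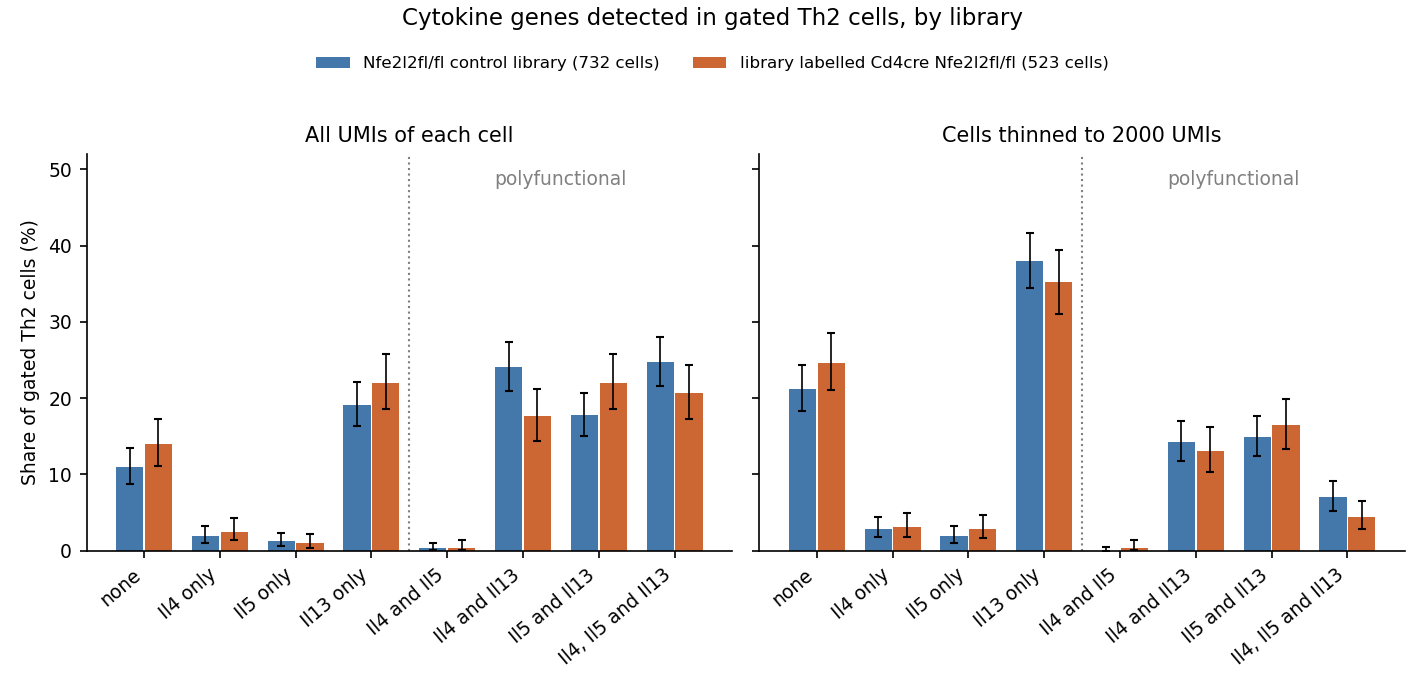
Share of gated Th2 cells (vertical axis, %) by the cytokine genes detected, with all UMIs (left) and after thinning to 2000 UMIs (right). Bars are the control library (732 cells) and the Cd4cre-labelled library (523 cells), error bars are exact binomial intervals, and combinations right of the dotted line make a cell polyfunctional. Combinations with Il13 account for nearly all polyfunctional cells, and the class of all 3 genes shrinks to 6.97% and 4.40% of gated cells at equal depth.

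The 300-base windows around the start sites of the 3 cytokine genes are shown because these genes define the cells, and GATA3 is the factor the gate used. Sequences are from RefSeq (GRCm38.p6), 250 bases before to 50 bases after the start, 5′ to 3′ on the gene's strand. Capitals mark GATAA or GATAG with A or T before it, on either strand, a common form of the GATA motif. The windows are chr11:53618616-53618915 (minus strand) for Il4, chr11:53720544-53720843 (plus strand) for Il5 and chr11:53634653-53634952 (minus strand) for Il13.
Il4: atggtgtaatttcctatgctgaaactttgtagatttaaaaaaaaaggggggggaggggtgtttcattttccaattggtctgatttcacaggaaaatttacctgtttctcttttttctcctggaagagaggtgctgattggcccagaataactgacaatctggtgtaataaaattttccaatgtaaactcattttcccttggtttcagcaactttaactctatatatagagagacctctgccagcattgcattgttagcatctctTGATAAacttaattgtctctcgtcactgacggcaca
Il5: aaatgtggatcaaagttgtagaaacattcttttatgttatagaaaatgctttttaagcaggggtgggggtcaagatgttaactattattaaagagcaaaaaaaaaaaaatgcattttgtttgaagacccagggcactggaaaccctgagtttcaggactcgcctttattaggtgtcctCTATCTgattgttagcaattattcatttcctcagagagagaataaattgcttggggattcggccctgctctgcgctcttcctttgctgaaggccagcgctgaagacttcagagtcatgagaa
Il13: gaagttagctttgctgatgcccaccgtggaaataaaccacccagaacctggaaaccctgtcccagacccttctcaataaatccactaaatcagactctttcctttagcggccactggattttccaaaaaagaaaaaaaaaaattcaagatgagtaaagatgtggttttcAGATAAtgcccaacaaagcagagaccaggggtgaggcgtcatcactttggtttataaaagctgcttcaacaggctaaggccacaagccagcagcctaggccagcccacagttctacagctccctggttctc
Each window held 1 such word, starting 72 bases before the start site in Il5, 81 bases before it in Il13 and at base 14 after it in Il4. A word of this kind occurs in 29.8% of all 32851 RefSeq mouse windows of that length. The word GGAAA, the core of NFAT sites, was found 5, 2 and 4 times in Il4, Il5 and Il13, where 26.7% of all windows hold 2 or more and 2.65% hold 4 or more. RefSeq also lists an Il4 start nearer to the gene's end, with the window chr11:53617289-53617588 (not shown), which holds 1 GATA word and 1 GGAAA. These matches describe letters and say nothing of binding in these cells.

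Polyfunctional cells made up 66.8% (63.3 to 70.2) of gated Th2 cells in the control library and 60.6% (56.3 to 64.8) in the Cd4cre-labelled library, a difference of -6.19 points (-11.58 to -0.81). The share followed depth within each library. In cells of 2000 to under 5000 UMIs it was 35.7% and 38.6%, from there to under 10000 UMIs 64.4% and 56.3%, and at 10000 UMIs or more 76.8% and 81.8%. After thinning it was 36.1% (264 of 732 cells) and 34.2% (179 of 523 cells), a difference of -1.84 points (-7.14 to 3.54). Whether the shares differ at equal depth thus depended on the draw and the rule. Another random seed gave -5.45 points (-10.73 to -0.05), a rule of 2 UMIs for each cytokine gene -4.38 points (-8.43 to -0.17), and a gate of 2 UMIs each of Gata3 and Il1rl1 1.48 points (-5.25 to 8.27). Background was low. At the same thinning, 4 of 377 and 1 of 566 T cells with Foxp3 and no Il1rl1 had 2 or more of the cytokine genes, 1.06% and 0.177%. With all UMIs, as in the rule for the members, 9 and 4 of them did, 2.39% and 0.707%. Their median depth was 6360 and 5826.5 UMIs. Of macrophage-type cells, those with 5 or more UMIs of Lyz2 and no CD3 gene, 0 of 169 and 2 of 623 did, at a median depth of 3595 and 4212 UMIs, and the 0 allows a share of up to 1.78%.

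Outside the cytokine genes, few genes set polyfunctional cells apart. Of 2602 genes with at least 50 CPM in a class of each library, 19 (0.73%) were at least 1.5-fold higher in polyfunctional cells in both libraries and 42 (1.61%) at least 1.5-fold lower, 2.34% in all, on a scale with 10 CPM added. Only Entr1 and Aggf1 passed 1.5-fold in opposite directions. The genes on the higher side included secreted mediators (Areg, Calca and Hdc, which makes one), redox and secretory enzymes (Gclc, Ero1l, Lman1) and receptors (Il1r2, Cd200r1, Il10ra). On the lower side stood the egress factor Klf2 (not with all UMIs), the adhesion gene Itgb1 and Ms4a4b, interferon-induced genes (Isg15, Isg20, Ifi27l2a) and TNF family genes (Ltb, Tnfsf11, Tnfrsf1b). Without cells that had a UMI of Th1 markers the counts were 28 and 49, and without cells with Ifit1, Ifit2, Ifit3 or Isg15 32 and 51, settings chosen after seeing the data.

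**Figure D2:**
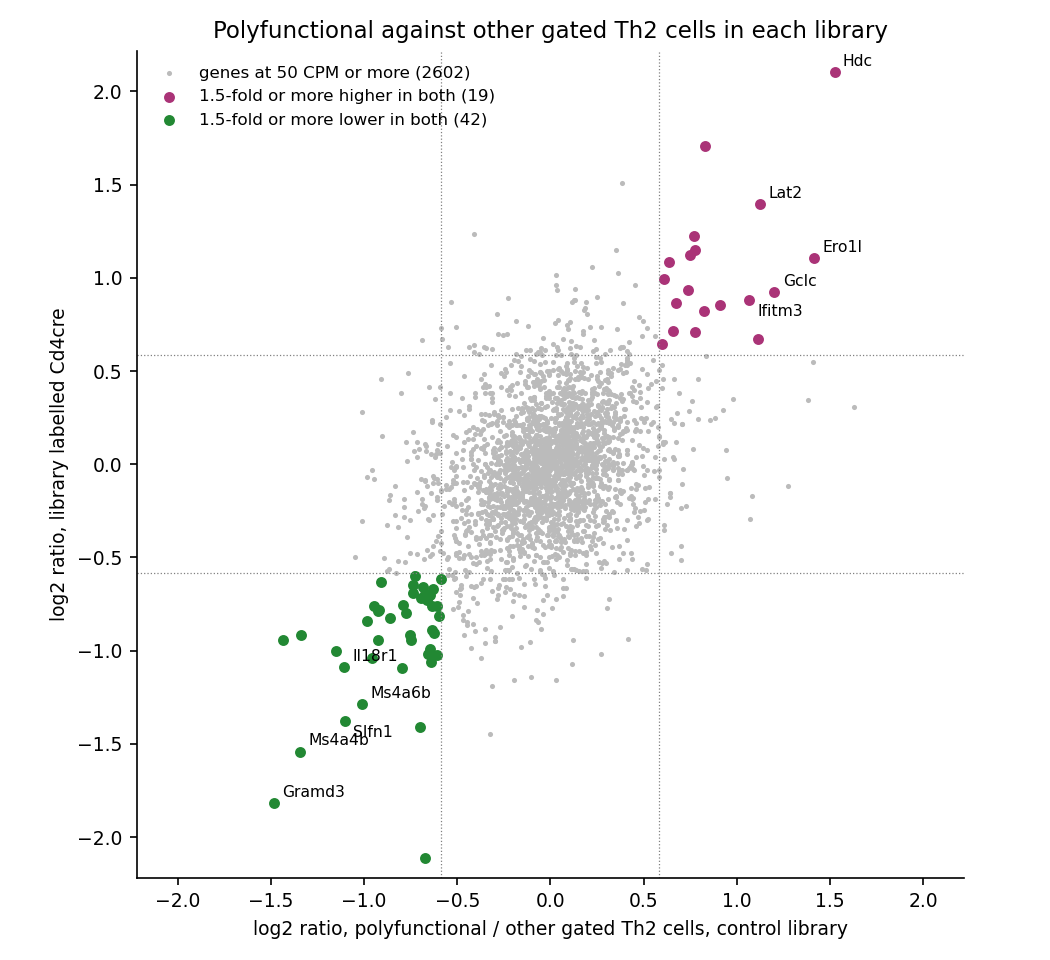
Log2 ratio of CPM (10 CPM added) of polyfunctional to other gated Th2 cells in the control library (horizontal axis) and the Cd4cre-labelled library (vertical axis), 1 point for each of 2602 genes. Coloured points passed 1.5-fold in the same direction in both libraries (19 higher, 42 lower), dotted lines mark 1.5-fold, and the 5 genes ranked first on each side are named. By the smaller ratio of the libraries, Hdc leads the higher side and Gramd3 and Ms4a4b the lower side.

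Hdc, which encodes histidine decarboxylase, the enzyme that makes histamine, ranked first. It stood at 113 CPM in polyfunctional and 32.9 CPM in other gated cells of the control library, a log2 ratio of 1.52 (counting limits of the plain ratio 1.02 to 2.64). In the Cd4cre-labelled library it stood at 189 and 36.4 CPM, a log2 ratio of 2.10 (1.60 to 3.26). Few cells carried it, 66 of 489 and 48 of 317 polyfunctional cells with all UMIs counted, and 1 cell reached 72 and 98 UMIs. Hdc is also a gene of mast cells and basophils. Of the 8 genes of that marker list, 4 had 0 UMIs in polyfunctional cells of the control library and 5 in the Cd4cre-labelled library. Fcer1a, Ms4a2, Cpa3 and Tpsb2 had 0 UMIs in both. Mcpt8, a basophil protease, had 154 and 27 UMIs in 5 and 4 cells, and 2 and 3 cells held both Hdc and Mcpt8. Mcpt8 was found in 0 of 243 and 0 of 206 other gated cells. The Hdc window (RefSeq, chr2:126618629-126618928, minus strand) is shown for comparison with the cytokine genes, with the GATA word in capitals.
Hdc: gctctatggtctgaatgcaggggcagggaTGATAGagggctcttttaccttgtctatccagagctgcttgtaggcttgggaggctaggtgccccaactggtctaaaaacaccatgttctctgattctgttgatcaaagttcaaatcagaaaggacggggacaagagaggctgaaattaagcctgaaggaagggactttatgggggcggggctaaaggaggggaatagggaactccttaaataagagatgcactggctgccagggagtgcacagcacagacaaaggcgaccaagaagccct
It held 1 GATA word, 221 bases before the start, and no GGAAA. Among the genes that passed 1.5-fold, 5 of the 12 higher genes that have a window had a GATA word in at least 1 window. On the lower side 12 of the 34 genes that have a window did. The 29.8% counts single windows, and a gene can have more than 1, so these shares cannot be compared with it.

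Of the other secreted mediators, Areg had the most UMIs. Areg encodes amphiregulin, an epidermal growth factor receptor ligand linked to tissue repair, and stood at 3361 against 2010.3 CPM (log2 0.74, 0.64 to 0.85) and 2964 against 1546 CPM (log2 0.93, 0.81 to 1.07). The polyfunctional cells of both libraries thus exceeded both groups of other gated cells. Calca, the gene of the neuropeptide CGRP, stood at 344 against 214 CPM and 385 against 231 CPM. Il6 stood at 63.4 against 16.5 CPM and 44.2 against 17.0 CPM. Over the list of type 2 partner cytokines and mediators, 7 of 10 measured members were higher in both libraries and 0 lower in both, 4 past 1.5-fold, with a median log2 ratio of 0.44 beside -0.01 for 5060 genes. Medians of lists are over genes, each gene's value being the mean of its log2 ratios in the libraries. Across all those genes 26.3% were higher and 31.2% lower in both libraries. Il10, which encodes an inhibitory cytokine, was at 466 against 405 CPM and 503 against 284 CPM, and the counting limits of its log2 ratio took in 0 in the control library (-0.04 to 0.45). Penk, the enkephalin precursor gene, went in opposite directions, at 124 against 28.8 CPM and 14.2 against 38.8 CPM.

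Ier3, Ero1l and Gclc, with Hdc, were the higher genes that passed 1.5-fold in each of 13 other settings. Ier3, a gene induced early by stress and growth signals, stood at 292 against 160.5 CPM (log2 0.83) and 268 against 75.2 CPM (log2 1.71). Ero1l, an oxidase that lets disulfide bonds form in the endoplasmic reticulum, stood at 209 against 72.0 CPM (log2 1.41) and 189 against 82.5 CPM (log2 1.11). Gclc, the catalytic part of glutamate-cysteine ligase, which limits glutathione synthesis, and a textbook NRF2 target, stood at 136 against 53.5 CPM (log2 1.2) and 106 against 51.0 CPM (log2 0.92). For each of the 3, the levels in the polyfunctional cells of the libraries lay above both levels of the other gated cells. Gclc was the only member of the NRF2 target list to pass: among 18 measured targets 5 were higher in both libraries and 4 lower, with a median of 0.07. Gclm, the partner subunit, was at 80.8 against 88.5 CPM and 91.5 against 85.0 CPM, and Sqstm1, an autophagy receptor, at 382 against 535 CPM and 429 against 509.7 CPM.

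Receptors and membrane proteins followed. Il1r2, a decoy receptor that binds IL-1 without signaling, stood at 481 against 282 CPM and 498 against 223 CPM. Cd200r1, an inhibitory receptor, stood at 105 against 57.6 CPM and 104 against 38.8 CPM, and Il10ra, the IL-10 receptor chain, at 190.2 against 121 CPM and 222 against 107 CPM. Lat2, an adaptor of antigen receptor signaling, stood at 74.6 against 28.8 CPM and 93.1 against 29.1 CPM, but with all UMIs at 68.7 against 46.7 CPM (log2 0.47) and 70.2 against 35.4 CPM (log2 0.82). Ifitm3, an interferon-inducible protein that restricts virus entry, was higher, at 317 against 146 CPM and 402 against 214 CPM, while most other interferon-induced genes were lower. Igfbp7, an insulin-like growth factor binding protein, stood at 592 against 342 CPM and 554 against 335 CPM, and Cst7, a protease inhibitor, at 216 against 132 CPM and 145 against 75.2 CPM. The ranking by size also named Impa1, Hlf, Zcchc10 and Rab20, at between 52.1 and 158 CPM in polyfunctional cells. With all UMIs and no thinning, 11 genes passed on the higher side. Of the 19 higher genes, 9 stayed past 1.5-fold in both libraries then. Besides Lat2, the named ones that did not were Impa1 (0.19 and 0.67 on the log2 scale), Rab20 (0.31 and 0.45), Cst7 (0.32 and 0.69), Igfbp7 (0.42 and 0.48), Lman1 (0.42 and 0.76), Il10ra (0.47 and 0.64), Cd200r1 (0.53 and 0.86) and Hlf (0.77 and 0.56).

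The lower genes were led by Gramd3, at 16.4 against 63.8 CPM (log2 -1.49, -2.93 to -1.05) and 14.2 against 75.2 CPM (log2 -1.82, -3.66 to -1.30). Ms4a4b, a membrane protein gene of T cells, stood at 80.8 against 220.2 CPM (log2 -1.34) and 85.2 against 267 CPM (log2 -1.54), and its relative Ms4a6b at 78.7 against 169 CPM and 83.6 against 218 CPM. Itgb1, the integrin beta 1 chain, stood at 192 against 438 CPM (log2 -1.15) and 199 against 408 CPM (log2 -1.0). Ltb, the gene of lymphotoxin beta, stood at 207 against 401 CPM (log2 -0.93) and 179.8 against 354 CPM (log2 -0.94). Ms4a4b, Itgb1 and Ltb passed 1.5-fold in each of 13 other settings. The levels of these genes in the libraries were close to each other within each class. Il18r1, a chain of the IL-18 receptor that Th1 cells use, stood at 20.4 against 55.6 CPM and 22.1 against 58.3 CPM. Slfn1, Cebpb, Trib1, Ubald2, Mndal, Retreg1 and Ski made up the rest of the 15 lowest with Isg15 and Isg20, with log2 ratios between -0.78 and -1.43. With all UMIs, 12 of the 15 stayed past 1.5-fold in both libraries, and Retreg1 (-0.18 and -0.63), Ski (-0.43 and -0.54) and Ubald2 (-0.72 and -0.56) did not. Over all 41 named genes that passed on the lower side, 19 stayed past 1.5-fold then and 22 did not.

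The list of naive and memory genes had the lowest median of the 24 lists. Of 8 measured members, 7 were lower in both libraries and 3 of them at least 1.5-fold, with a median of -0.80, and of -0.52 with all UMIs. S1pr1, the receptor that guides T cells out of tissue, stood at 14.3 against 49.4 CPM and 7.89 against 48.5 CPM. Klf2, the factor that drives S1pr1, stood at 48.1 against 84.4 CPM and 50.5 against 150.5 CPM, but with all UMIs the control library had 59.9 against 63.6 CPM (log2 -0.07) and only the Cd4cre-labelled library stayed past 1.5-fold (56.5 against 127 CPM). Tcf7, which encodes TCF1, stood at 21.5 against 45.3 CPM and 7.89 against 60.7 CPM. Foxp1 was the exception, at 129.9 against 142 CPM and 129 against 94.7 CPM. Genes tied to tissue residence differed less: Cd69 was at 541 against 500 CPM and 648 against 614 CPM, Rgs1 at 2107 against 1872 CPM and 2084 against 1905 CPM, and Cxcr6 at 829 against 858 CPM and 729 against 607 CPM. The list of residence and egress genes had 4 of 13 members higher and 7 lower, with Itgb1, S1pr1 and Klf2 past 1.5-fold and a median of -0.30, which turned to 0.11 when the comparison cells were matched on UMIs.

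Interferon-induced genes were lower as a group. Of 16 measured members of the list, 12 were lower and 0 higher in both libraries, 5 past 1.5-fold, with a median of -0.44. Ifitm3, which is interferon-inducible and was higher in both libraries, is not on this list. Leaving out cells with a UMI of Ifit1, Ifit2, Ifit3 or Isg15, genes that are themselves on the list, brought the median to -0.13. Isg15, a ubiquitin-like protein, stood at 106 against 305 CPM (log2 -1.43) and 153 against 303 CPM (log2 -0.94). Ifi27l2a stood at 1255 against 2368 CPM and 2498 against 3876 CPM, so its level in polyfunctional cells of the Cd4cre-labelled library exceeded that in the other gated cells of the control library. Rtp4 stood at 15.3 against 49.4 CPM and 34.7 against 87.4 CPM, and Zbp1 went in opposite directions, at 119 against 86.4 CPM and 91.5 against 184 CPM. Of 9 measured TNF family genes, 7 were lower and 0 higher in both, with a median of -0.39, and of -0.20 with comparison cells matched on UMIs. Among them, Tnfsf11, the gene of RANK ligand, was at 157 against 267 CPM and 203 against 313 CPM, short of 1.5-fold in the Cd4cre-labelled library with all UMIs (log2 -0.52), and Tnfrsf4, which encodes OX40, at 657 against 854 CPM and 852 against 1044 CPM.

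Some of these genes were graded by the number of cytokine genes in the cell, from 0 through 3. They were named for differing between cells with 0 or 1 and cells with 2 or 3. A step across that split thus follows from the choice of genes. Others were not graded in the control library, such as Areg, at 2144, 1945, 3420 and 3260 CPM, and Mndal, at 131, 95.1, 43.8 and 80.1 CPM. Itgb1 stood at 625, 347, 222 and 141 CPM in the control library and at 541, 335, 215 and 167 CPM in the Cd4cre-labelled library. Ms4a4b stood at 344, 159.5, 106 and 38.7 CPM and at 438, 173, 98.1 and 60.2 CPM. Isg15 differed most between 0 and 1 cytokine gene, at 531, 193, 114 and 93.9 CPM and at 486, 203, 177 and 106 CPM. Gramd3 did so even more, at 138, 27.6, 21.1 and 8.29 CPM and at 185, 15.0, 14.4 and 13.9 CPM. In the other direction Igfbp7 stood at 256, 383, 505 and 740.3 CPM and at 137, 444, 509.6 and 639 CPM, and Ero1l at 43.8, 85.9, 199.7 and 224 CPM and at 34.2, 109, 175 and 218 CPM. Hdc did not follow the number of genes in every step, at 12.5, 42.9, 58.4 and 207 CPM and at 95.9, 3.76, 141 and 282 CPM. Thinning equalises the UMIs per cell, and whether cell size moves with the number of cytokine genes was not tested.

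**Figure D3:**
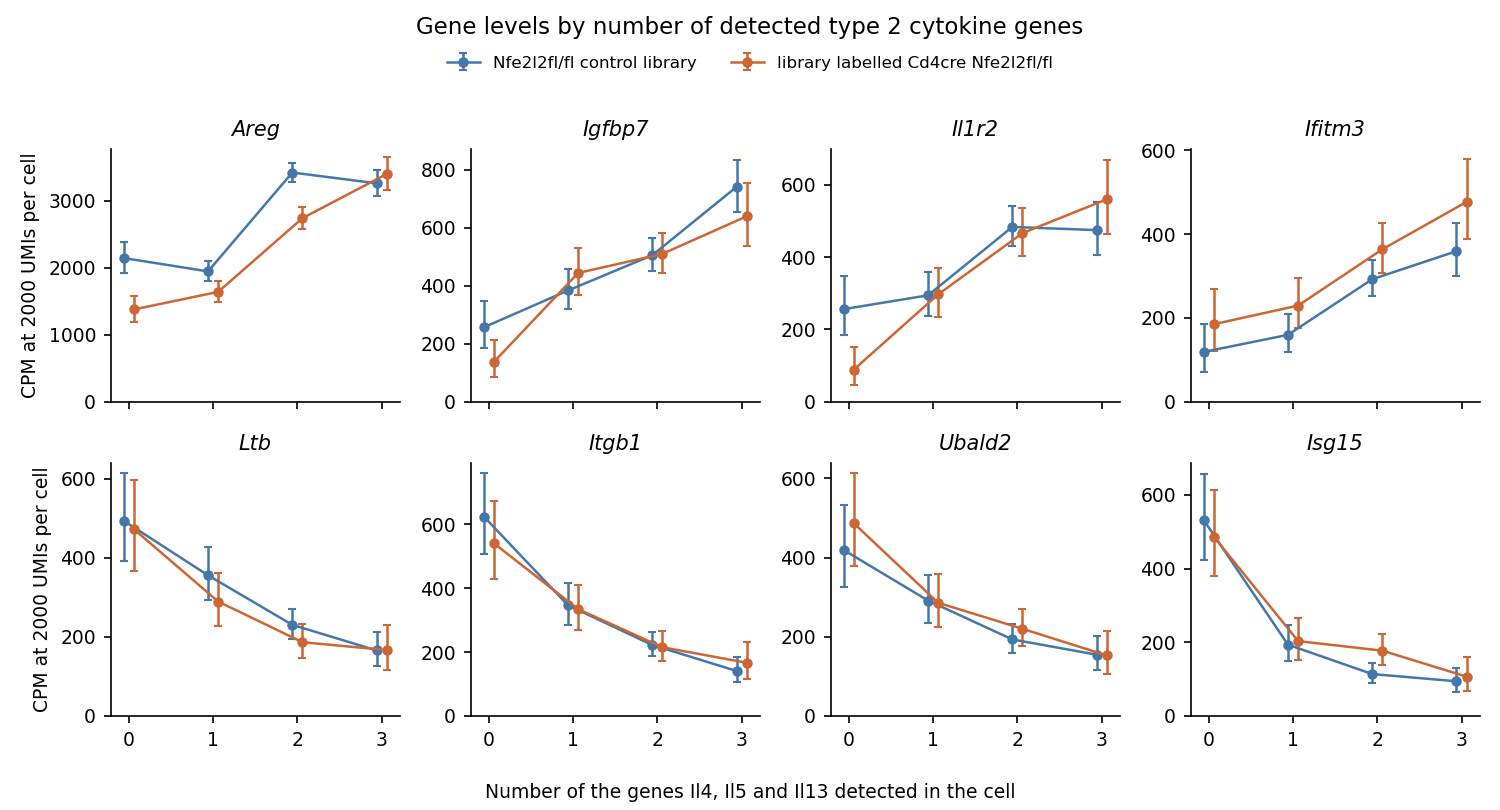
CPM at 2000 UMIs per cell (vertical axes) by the number of the genes Il4, Il5 and Il13 detected in the cell (horizontal axes), for the 4 named genes with the most UMIs on the higher side (top) and the lower side (bottom). Points are sums over all cells of a group in the control library and the Cd4cre-labelled library, and bars are exact Poisson intervals. Igfbp7 is higher and Itgb1 lower at each added cytokine gene in both libraries.

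Metabolic genes lay slightly higher in polyfunctional cells without passing 1.5-fold. Of 14 measured glycolysis genes, 9 were higher and 1 lower in both libraries, 0 past 1.5-fold, with a median of 0.25 that kept its sign in 14 of 14 other settings and was 0.11 with comparison cells matched on UMIs. Aldoa, an aldolase, stood at 1266 against 905 CPM and 1035 against 789 CPM. Pgk1 stood at 353 against 261 CPM and 308 against 192 CPM, and Ldha, lactate dehydrogenase, at 1794 against 1506 CPM and 1632 against 1357 CPM. Pfkl was the gene lower in both, at 25.6 against 35.0 CPM and 30.0 against 38.8 CPM. Of 17 citric acid cycle genes, 8 were higher and 3 lower, with a median of 0.14, and Mdh1, cytosolic malate dehydrogenase, stood at 476 against 335 CPM and 416 against 240.3 CPM. Of 53 nuclear genes of the respiratory chain and ATP synthase, 25 were higher and 6 lower, with a median of 0.06, against 6 and 3 of the 13 mitochondrially encoded ones, with a median of 0.01. Of 16 lipid genes, 7 were higher and 2 lower, with a median of 0.15, and Pparg stood at 127 against 82.3 CPM and 93.1 against 65.5 CPM. Secretory pathway genes had a median of 0.11, with 12 of 31 higher and 5 lower. Lman1, a cargo receptor between endoplasmic reticulum and Golgi, was the member past 1.5-fold, at 118 against 72.0 CPM and 88.3 against 36.4 CPM, and Sec11c, a signal peptidase subunit, stood at 389.6 against 267 CPM and 377 against 282 CPM.

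The 23 measured Th2 and effector transcription factor genes had a median of 0.09, with 9 higher, 6 lower and 0 past 1.5-fold. Gata3 itself was at 783 against 724 CPM and 829.7 against 568 CPM, and Il1rl1 at 468 against 477 CPM and 528 against 444 CPM. Rora was lower, at 207 against 313 CPM and 276 against 429.6 CPM, just short of 1.5-fold in the control library. Alarmin and cytokine receptors (6 of 12 higher, 5 lower, median 0.08), chemoattractant and neuropeptide receptors (5 of 15 higher, 6 lower, 0.02), costimulatory and checkpoint receptors (4 of 14 higher, 5 lower, -0.07), the TCR complex (3 of 18 higher, 7 lower, -0.08), BCL2 family genes (2 of 10 higher, 5 lower, -0.07) and ribosomal protein genes (20 of 64 higher, 25 lower, -0.005) lay near the median of all genes. So did other antioxidant genes (7 of 16 higher, 3 lower, 0.09) and amino acid transport and mTORC1 genes (7 of 16 higher, 1 lower, 0.10). Immediate early genes of TCR signaling lay slightly lower, with 8 of 23 higher, 13 lower and a median of -0.12, where 31.2% of all genes were lower. NRF2 and its regulators had 1 of 6 higher and 4 lower, with a median of -0.12. Several of these small medians did not hold their sign over 14 other settings: it held in 9 for chemoattractant receptors, 10 for NRF2 targets and for mitochondrially encoded genes, 11 for amino acid and mTORC1 genes and for NRF2 and its regulators, and 13 for costimulatory receptors, immediate early genes and BCL2 family genes. The list of other helper cytokines rested on Ltb and Il17a, both lower, with a median of -0.61. Besides the genes already described, these lists held 3 members past 1.5-fold: Psat1, an enzyme of serine synthesis, was higher, and Bcl2l11, which encodes the cell death protein BIM, and the receptor gene Cd96 were lower. With all UMIs Psat1 (log2 0.37) and, narrowly, Bcl2l11 (-0.58) fell short in the control library.

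**Figure D4:**
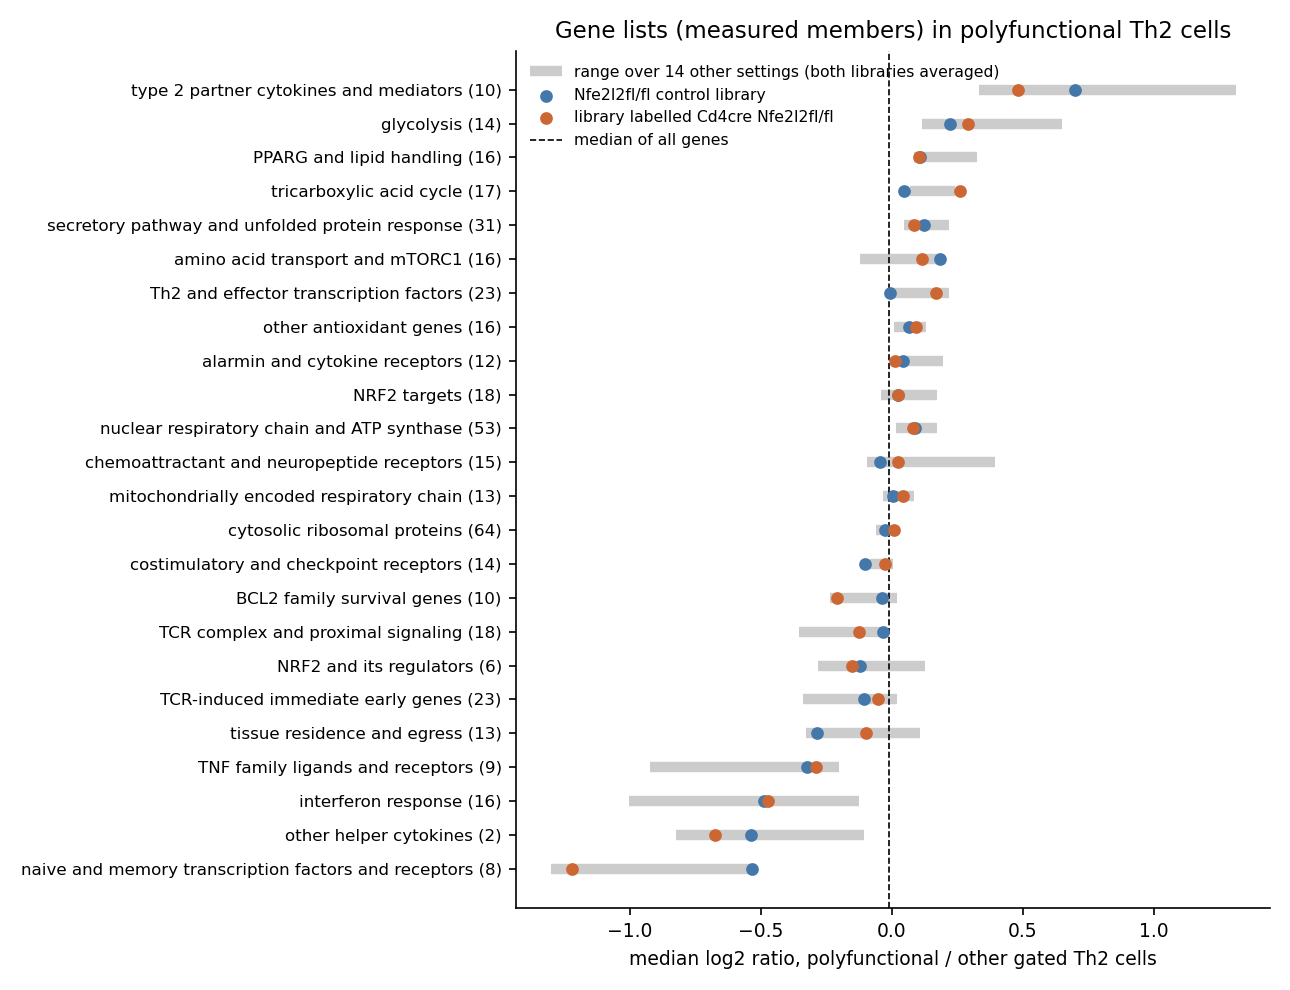
Median log2 ratio of polyfunctional to other gated Th2 cells (horizontal axis) for 24 gene lists, with the number of measured members in brackets. Points are the 2 libraries, grey bars the range of the median over 14 other settings with the libraries averaged, and the dashed line the median of all genes. Partner mediators and glycolysis lie to the right, and naive, interferon and TNF family lists to the left.

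Markers of other cell types were followed in both classes, summed with all UMIs. The 6 naive T cell markers summed to 152 and 118 CPM in polyfunctional cells against 223 and 296 CPM in other gated cells, and the 6 Th1 markers to 280 and 276 CPM against 358 and 554 CPM. At equal depth the Th1 markers stood at 264 and 263 CPM against 270 and 566 CPM, with overlapping intervals in the control library. Ccl5, one of the Th1 markers, stood at 33.7 and 79.5 CPM against 13.9 and 274 CPM. Gzmb, a cytotoxic granule protease, stood at 44.3 and 14.3 CPM against 57.2 and 91.3 CPM. Both rested on few cells in either class. At equal depth 1.23% and 6.80% of other gated cells carried Ccl5, and 4.94% and 6.80% carried Gzmb. Among polyfunctional cells, 5 cells held 86.5% and 89.5% of the Ccl5 UMIs and 55.6% and 69.8% of the Gzmb UMIs. The 9 macrophage markers other than Lyz2 summed to 133 and 130 CPM against 191 and 231 CPM, with Marco at 0 in both libraries, and 9 dendritic cell markers to 270 and 205 CPM against 510 and 247 CPM. The 7 B cell markers summed to 51.4 and 84.8 CPM against 53.2 and 53.1 CPM, and the 8 granulocyte markers to 5.36 and 9.64 CPM against 10.4 and 16.3 CPM. The 8 NK and innate lymphoid markers summed to 74.0 and 83.5 CPM against 40.3 and 33.4 CPM, with Ncr1, Klrb1c, Klre1 and Il22ra2 at 0 in both libraries and Arg1 alone at 49.8 and 62.2 CPM. The 8 mast cell and basophil markers, Hdc among them, summed to 146 and 168 CPM against 29.3 and 29.3 CPM. The 5 regulatory T cell markers other than Foxp3 summed to 1208 and 1226 CPM against 1213 and 1082 CPM, 6 Th17 markers to 268 and 172 CPM against 246 and 303 CPM, 6 follicular helper markers to 215 and 197 CPM against 226 and 237 CPM, and 6 CD8 markers to 261 and 190.2 CPM against 226 and 209.8 CPM. The 5 invariant NKT markers summed to 29.6 and 24.6 CPM against 36.8 and 33.4 CPM, with Trav11 and Trav11d at 0. The 8 epithelial and endothelial markers summed to 39.7 and 44.6 CPM against 33.3 and 40.2 CPM, and 5 red cell markers to 0 and 0.333 CPM against 0 and 0 CPM. Checks of the part of these markers in the differences above are reported here only for leaving out cells with Th1 or interferon genes.

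Polyfunctional cells also differed among themselves by which cytokine accompanied Il13, a comparison made after seeing the data. Cells with Il5 and Il13 were set against cells with Il4 and Il13 in each library. Of 2560 genes, 75 (2.93%) passed 1.5-fold in the same direction in both libraries, 33 higher and 42 lower with Il5, while 39 passed in opposite directions. With all UMIs 34 passed in the same direction, 8 higher and 26 lower with Il5, and 1 in opposite directions, and 21 of the 75 genes stayed past 1.5-fold. The Il4 side was led by Il10, at 250 CPM in the Il5 cells and 688 CPM in the Il4 cells of the control library, and at 296 and 728 CPM in the other. With all UMIs, 53 of 130 and 43 of 115 Il5 cells carried Il10, against 109 of 176 and 59 of 92 Il4 cells. Maf, which encodes c-MAF, a transcription factor known to act on Il4 and Il10, stood at 196 against 418 CPM and 230.4 against 462 CPM. Foxp1, at 65.4 against 199 CPM and 82.6 against 196 CPM, Ahr, at 46.2 against 105 CPM and 34.8 against 97.8 CPM, and Ms4a4b, at 53.8 against 142 CPM and 43.5 against 168 CPM, lay on the same side. With all UMIs Ahr fell short of 1.5-fold in the control library (61.1 against 89.7 CPM, log2 -0.49), while Il10, Maf, Foxp1 and Ms4a4b stayed past it in both.

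On the Il5 side, Il17a had the largest ratio, at 408 against 88.1 CPM and 422 against 38 CPM, but it rested on few cells. It was found in 23 of 130 and 16 of 115 Il5 cells, and 5 cells held 86.9% and 88.3% of its UMIs there. Ltb4r1, a leukotriene B4 receptor, was more widely spread, at 388 against 227 CPM and 304 against 179 CPM, with UMIs in 119 and 95 of the Il5 cells, but with all UMIs it was at 371 against 279 CPM (log2 0.40) and 295 against 226 CPM (log2 0.37), short of 1.5-fold. Ckb, creatine kinase B, stood at 135 against 45.5 CPM and 100 against 38 CPM, and fell short in the Cd4cre-labelled library with all UMIs (88.7 against 60.3 CPM, log2 0.49). Cells with all 3 cytokine genes were then set against cells with 2. Only 25 of 2598 genes (0.962%) passed in the same direction, beside 21 in opposite directions, and with all UMIs 10 and 1 did. The highest were Cxcl2, a neutrophil-attracting chemokine, at 492 against 222 CPM and 694 against 256 CPM, and Hdc, at 207 against 58.4 CPM and 282 against 141 CPM. Lgals7 stood at 467 against 273 CPM and 588 against 311 CPM, and Il6 at 108 against 37.3 CPM and 69.4 against 31.1 CPM. All 4 stayed past 1.5-fold in both libraries with all UMIs, but their UMIs were clumped. Of cells with all 3 genes, 42 of 181 and 38 of 108 carried Cxcl2, and 37 and 17 carried Hdc. There 5 cells held 44.0% and 55.5% of the Cxcl2 UMIs and 50.8% and 67.8% of the Hdc UMIs. For Lgals7 5 cells held 36.4% and 51.1%, and for Il6 33.7% and 43.8%.

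Between the libraries, the gene with the highest ratio in polyfunctional cells was Nfe2l2, in the direction opposite to a loss. Its level was 25.6 CPM (16.5 to 37.7) in control cells and 181 CPM (149.8 to 218) in Cd4cre-labelled ones, a log2 ratio of 2.43, and at 43.2 and 218 CPM in other gated cells. With all UMIs it was found in 92 of 489 and 232 of 317 polyfunctional cells. The reads come from transcript 5′ ends and the labels do not give the deleted exons, so these counts check neither the label nor the deletion. NRF2 targets lay near all genes as a list: the ratio of the libraries was above 0 for 11 of 18 and below it for 7, beside 49.0% and 51.0% of 5060 genes, with a median of 0.01. Gclc stood at 136 and 106 CPM, Prdx1 at 427 and 379 CPM, and Fth1, the ferritin heavy chain, at 2792 and 3259 CPM.

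At 1.5-fold, 60 of 2781 genes (2.16%) were higher and 67 (2.41%) lower in the Cd4cre-labelled library, 4.57% in all, but with all UMIs and no thinning the counts were 18 and 6. Ifi27l2a stood at 1255 and 2498 CPM (log2 0.99, 0.89 to 1.1) in polyfunctional cells and at 2368 and 3876 CPM in other gated cells. H2-Q7, a non-classical class I gene, stood at 305 and 525 CPM, H2-Q6 at 91 and 164 CPM, and Tnfsf8, which encodes CD30 ligand, at 286 and 456 CPM. Ccl1, a chemokine that binds CCR8, stood at 74.6 and 238 CPM in polyfunctional and 148 and 214 CPM in other gated cells. It came from 57 of 489 and 45 of 317 polyfunctional cells, 5 of which held 43.2% and 59.8% of its UMIs. Ccl5 went from 19.4 to 63.1 CPM in polyfunctional cells and from 6.17 to 352 CPM in other gated cells. Only 18 of 489 and 23 of 317 polyfunctional cells carried Ccl5, and 5 of them held 86.5% and 89.5% of its UMIs. Of the other gated cells of the Cd4cre-labelled library, 6.80% carried Ccl5 at equal depth. There it stood at 884 CPM with 0 cytokine genes and 60.2 CPM with 1. Of the interferon list, 12 of 16 were higher in the Cd4cre-labelled library in polyfunctional cells, beside 49.0% of all 5060 genes, with a median of 0.35, beside a median of 0.09 in other gated cells. That these medians differ was not tested. Ly6d, with all of its UMIs in 5 cells of each library, and Trib1, Mir155hg, Rnf19b and Dot1l were also among the 10 highest, Dot1l at 32.7 and 72.6 CPM. With all UMIs Dot1l stood at 40.9 and 55.9 CPM (log2 0.37) and Trib1 at 30.4 and 50.2 CPM (log2 0.58), both short of 1.5-fold.

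Penk had the lowest ratio, at 124 and 14.2 CPM, but 15 cells of the control library carried it and 5 of them held 96.4% of its UMIs. Cxcl3, a neutrophil-attracting chemokine, stood at 235 and 123 CPM (log2 -0.88, -1.32 to -0.56) and at 269 and 172 CPM with all UMIs. Cyp11a1, the first enzyme of steroid synthesis and known in Th2 cells, stood at 68.5 and 39.4 CPM, and at 74.0 and 37.6 CPM with all UMIs. Ash2l, Mcm6, Satb1, Pmaip1, Tnfaip8l2, Stmn1, Csnk1d and Eci1 made up the rest of the 10 lowest, at 50.1 to 81.8 CPM in the control library, and with all UMIs none of these 8 stayed past 1.5-fold (log2 -0.26 to -0.48). Of 14 glycolysis genes, 10 had a ratio below 0 and 4 above it, beside 51.0% and 49.0% of all genes, with a median of -0.19 in polyfunctional and -0.21 in other gated cells, against -0.01 for all genes. In each of 12 other settings Nfe2l2, Ifi27l2a, H2-Q7 and Rnf19b stayed past 1.5-fold on the higher side, and Penk and Cxcl3 on the lower side.

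**Figure D5:**
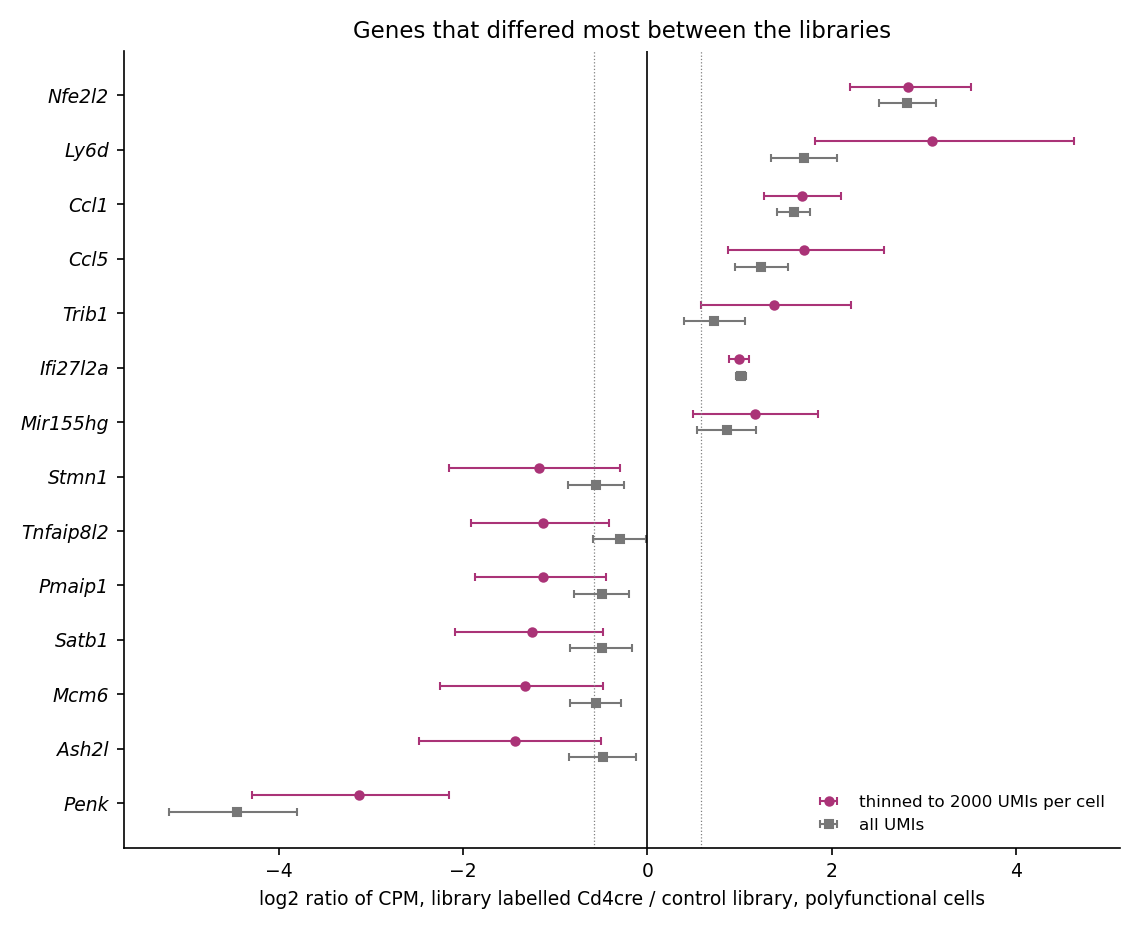
Log2 ratio of CPM of the Cd4cre-labelled library to the control library in polyfunctional cells (horizontal axis) for the 7 highest and 7 lowest ranked genes. Circles are cells thinned to 2000 UMIs and squares all UMIs, with no CPM added, bars are exact conditional binomial intervals and dotted lines mark 1.5-fold. Nfe2l2 and Penk are far from 0 in both, while Ash2l and Tnfaip8l2 come nearer to 0 with all UMIs.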

How the data were processed

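Lung CD4+ cells were measured in 2 libraries of 10x Genomics single-cell RNA sequencing (reads from transcript 5′ ends, per the labels' protocols), grouped by sample title. The authors deposited raw UMI counts per gene and barcode, with gene names and barcodes in separate files. Cell Ranger 4.0.0 and the build GRCm38 are named in the submitters' processing notes. The annotation was not given in the sources used here. Where 2 features share a symbol, the one with more UMIs kept it.

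The gate and classes used all UMIs of a cell. Gated cells were thinned once, by a fixed random seed, to 2000 UMIs, and UMIs were summed per library and class. Ratios are log2 of CPM with 10 CPM added. A gene passed at 1.5-fold in both libraries, or, between libraries, in polyfunctional cells, with at least 50 CPM in a class or library. No test across genes was run, since the classes were split by measured UMIs and each genotype has 1 library. Intervals are 95% and exact for a CPM (Poisson), a share (binomial, Clopper-Pearson) and a ratio (binomial, conditional on the sum), and Newcombe's for a difference of shares. A count of 0 allows a share of up to 3 counts of the total. The 12 gate genes were left out of rankings and lists. The 24 gene lists and 16 marker lists are given by counts and medians over members with at least 20 UMIs in each library, with no CPM minimum. The members and lists were chosen with earlier results of these data known. Named genes are the 15 highest and 15 lowest by the smaller ratio of the libraries, the 10 highest and 10 lowest between libraries (antigen receptor, globin, ribosomal protein, mitochondrial and sex-linked genes and unnamed gene models left out), up to 4 members of each list by UMIs and 4 by size, and the markers. Some genes, and results that need them, are not reported here. Other names, and the genes of comparisons among polyfunctional cells, were chosen after their values were seen. The call of genes past 1.5-fold was tested on simulated summed counts, which had no clumping of UMIs in few cells. The thinning was checked on the gated cells of the control library. Python 3.11.15, numpy 2.4.6, scipy 1.17.1, pandas 2.3.3 and matplotlib 3.10.9 were used. Alternatives covered class assignment, thinning, matching on depth, the cytokine rule, thresholds, filters and cells of the highest depth, as a guard against doublets.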

Additional observations from a re-analysis of the deposited data

Results flagged for a closer look

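Of 2602 genes, 2 passed 1.5-fold in opposite directions in the libraries when polyfunctional and other gated Th2 cells were compared. Entr1 had a log2 ratio of -0.688 in the control library (40.9 against 72.0 CPM, from 40 and 35 UMIs) and 0.665 in the Cd4cre-labelled library (52.1 against 29.1 CPM, from 33 and 12 UMIs). Aggf1 had a log2 ratio of -0.586 (46.0 against 74.1 CPM, from 45 and 36 UMIs) and 0.733 (63.1 against 34.0 CPM, from 40 and 14 UMIs). The counting limits of the ratio took in 0 in the Cd4cre-labelled library for both genes. The difference between the libraries was not tested.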

How the results depend on the processing

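No paired analysis was possible because the control and the Cd4cre-labelled group hold 1 library each. The 4 counts of genes past 1.5-fold, polyfunctional against other gated cells (19 higher, 42 lower) and between the libraries (60 higher, 67 lower in the Cd4cre-labelled library), moved with most settings. In that order they were 12, 18, 131 and 170 with classes assigned on thinned counts, 3, 6, 5 and 7 at 2-fold, 62, 120, 209 and 248 at 1.3-fold, 46, 85, 198 and 264 at a minimum of 20 CPM, and 114, 174, 245 and 275 for cells with all 3 cytokine genes (against 0). With unthinned counts they were 11, 29, 18 and 6. At 5000 UMIs per cell the last 3 were 26, 25 and 18, and at a minimum of 100 CPM 25, 21 and 16. With 1 CPM added the last 2 were 99 and 109. Comparison cells matched on UMIs gave 29 higher genes, a rule of 2 UMIs for each cytokine 29 higher and 106 in the last count, and 2 UMIs each of Gata3 and Il1rl1 105 in the last. With the control library alone 84 genes were higher and 156 lower, and with the other alone 129 and 201. Settings added after seeing the data left out cells with Th1 markers (119 and 127 between libraries) or with interferon genes (32 higher, 111 and 141 between libraries). Lower folds and minimums pass more genes by construction, and for the other settings the cause was not tested. Over 13 settings, 17 of 19 higher and 35 of 41 named lower genes kept their sign in all. Of 336 list medians, 26 changed sign. Of these, 18 came from 6 lists whose median lay within 0.1 of 0. The other 8 were NRF2 and its regulators to 0.1 (another seed), 0.125 (without Th1 markers) and 0.048 (without interferon genes), immediate early genes to 0.021 (matched on UMIs), and residence and egress to 0.106 (matched), 0.039 (2 UMIs of Gata3 and Il1rl1), 0.028 (without interferon genes) and 0.048 (at least 50 UMIs). The share difference (-1.84 points) ranged from -6.19 to 1.48 points.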

Other observations

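T cell receptor V genes were spread over many families in the polyfunctional cells, counted first with all UMIs, where these cells are deeper than the other gated cells. Trbv13-2 was found in 23.1% (19.4 to 27.1) and 17.0% (13.1 to 21.6) of them, Trbv16 in 18.6% and 16.7%, and Trbv3 in 13.3% and 16.7%. Other gated Th2 cells held 23.9% and 21.8% for Trbv13-2, 18.9% and 15.0% for Trbv16, and 13.6% and 13.1% for Trbv3, and all of the intervals of a gene overlapped between the classes of a library. At equal depth Trbv13-2 was found in 12.7% of polyfunctional and 12.8% of other gated cells of the control library, and in 9.15% and 16.5% in the Cd4cre-labelled library. Cells with both Trbv20 and Trav9-2 were rare, at 1 of 489 and 2 of 317 polyfunctional cells. V gene UMIs are not a clone call, since near-identical V genes can share reads and no junction sequence was used.

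Among mitochondrial genes, mt-Atp8 stood at 592 CPM in the control library and 1128 CPM in the Cd4cre-labelled library in polyfunctional cells, and at 595 and 1066 CPM in other gated cells, while mt-Atp6, which overlaps it, went the other way, from 3493 to 2823 CPM.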
